A study of Mus musculus with 8 samples.

Results

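The Cdc42 effector proteins, also named Borg proteins, are the small family through which the GTPase Cdc42 acts on septins. In all, 6 genes made up the family here, namely Cdc42 and Cdc42ep1 to Cdc42ep5, found by their symbols, and all 6 were listed among the 42391 gene entries of the count matrix. Polyadenylated RNA was sequenced from 8 samples of mouse myoblasts, in which Septin9 had been depleted with 1 siRNA or which had received a non-targeting siRNA as control, with 2 replicates of each group. The C2C12 cells, a wild-type mouse myoblast line, were transfected at 50 nM (100 nM for the first 5 h), differentiated for 12 h by serum withdrawal and collected 60 h after transfection. The primary myoblasts (wild-type, pMb in the sample labels) were kept proliferating and collected 48 h after transfection, so cell origin, differentiation and time cannot be told apart between the cell types. C2C12 is a single line, the sources used here do not say whether the 2 primary myoblast replicates came from different animals, and p-values measure the spread between these samples only, which may be technical.

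Cdc42 is a small GTPase that switches between a GDP-bound and a GTP-bound form and directs actin filaments, membrane protrusions and cell polarity. Borg proteins bind GTP-loaded Cdc42 through a CRIB motif and bind septin filaments through a separate conserved domain, and they are known to set where septin filaments form and whether they align with actin fibres. In RefSeq for GRCm38.p6, Cdc42ep1 is Borg5, Cdc42ep2 is Borg1, Cdc42ep3 is Borg2, Cdc42ep4 is Borg4 and Cdc42ep5 is Borg3.

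The 6 genes lie on 6 different chromosomes of GRCm38.p6. Cdc42 spans chr4:137319696-137357759 on the minus strand, Cdc42ep1 chr15:78842647-78850902 on the plus strand and Cdc42ep2 chr19:5917556-5924816 on the minus strand. Cdc42ep3 spans chr17:79333723-79355091, Cdc42ep4 chr11:113726850-113752543 and Cdc42ep5 chr7:4151260-4164831, all 3 on the minus strand. In the GENCODE annotation the gene spans of Cdc42ep1 and Cdc42ep3 overlap a gene on the other strand, by 38 bases with Lgals2 and by 393 bases with the long noncoding RNA Gm17315. Whether exons overlap was not examined. Whether the counting used strand is not given in the sources used here, so reads in those stretches cannot be assigned with certainty. Lgals2 was at 0.708 to 5.39 CPM (read counts scaled to sequencing depth) and Gm17315 at 6.39 to 13.6 CPM over the 8 samples.

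The start regions of Cdc42ep2, Cdc42ep3 and Cdc42ep5 are shown because these 3 genes were called higher in the C2C12 controls than in the primary myoblast controls. Each window is RefSeq sequence of GRCm38.p6 from 250 bases before to 50 bases after the annotated start, read 5′ to 3′ on the minus strand of chr19:5924767-5925066, chr17:79355042-79355341 and chr7:4164656-4164955. Capitals mark E-boxes (CANNTG, the motif of MyoD and myogenin), M-CAT elements (CATTCC on either strand, the motif of TEAD factors), CArG boxes (the motif of serum response factor) and GC boxes (GGGCGG on either strand, the motif of Sp factors).
Cdc42ep2: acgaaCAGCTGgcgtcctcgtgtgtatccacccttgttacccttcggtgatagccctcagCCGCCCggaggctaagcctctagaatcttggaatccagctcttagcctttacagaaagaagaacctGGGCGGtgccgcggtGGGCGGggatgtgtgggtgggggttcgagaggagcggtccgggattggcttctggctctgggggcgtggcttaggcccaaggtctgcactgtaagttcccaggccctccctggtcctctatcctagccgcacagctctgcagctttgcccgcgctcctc
Cdc42ep3: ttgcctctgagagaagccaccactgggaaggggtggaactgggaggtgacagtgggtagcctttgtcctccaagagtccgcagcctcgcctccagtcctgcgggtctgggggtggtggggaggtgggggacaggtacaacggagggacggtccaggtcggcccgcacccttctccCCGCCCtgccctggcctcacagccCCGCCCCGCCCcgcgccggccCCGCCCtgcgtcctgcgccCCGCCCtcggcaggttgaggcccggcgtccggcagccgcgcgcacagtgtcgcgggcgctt
Cdc42ep5: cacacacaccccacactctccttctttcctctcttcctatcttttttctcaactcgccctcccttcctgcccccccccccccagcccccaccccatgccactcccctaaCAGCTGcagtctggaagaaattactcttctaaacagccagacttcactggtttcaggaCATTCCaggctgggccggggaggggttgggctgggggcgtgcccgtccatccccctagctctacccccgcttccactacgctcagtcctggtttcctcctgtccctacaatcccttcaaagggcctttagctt

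The start regions differed in the letters they held. That of Cdc42ep2 held 1 E-box, CAGCTG, at base -245 from the start and 3 GC boxes, and that of Cdc42ep3 held 5 GC boxes, 2 of which share a base, and no E-box, M-CAT element or CArG box. The window of Cdc42ep5 held an E-box of the same letters, CAGCTG, at -141 and an M-CAT element at -83. Among the other members, Cdc42ep1 held 1 M-CAT element and 5 GC boxes, Cdc42 held 2 GC boxes, and of the 2 annotated starts of Cdc42ep4 only the second held a motif, 1 M-CAT element. Over all 32851 start windows of the RefSeq table, 72.3% held an E-box, 14.7% an M-CAT element, 1.63% a CArG box and 35.7% a GC box. GC content ranged from 49.3% in the Cdc42 window to 80.0% in the Cdc42ep1 window, against a median of 52.7% over all windows. A match of these letters is a description of the window and not evidence of binding.

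Between 20898611 and 27223414 reads were counted per sample. Septin9 itself was at 430 and 441 CPM in the C2C12 controls and at 151 and 189 CPM after Septin9 siRNA, and at 365 and 459 CPM in the primary myoblast controls and at 199 and 157 CPM after the siRNA. The target was thus lower in every Septin9-deficient sample than in every control sample, by -1.36 (log2, SE 0.076, edgeR adjusted p = 5.11e-09) in C2C12 and -1.21 (SE 0.15, adjusted p = 0.000134) in primary myoblasts. The myoblast markers Myod1, Pax7 and Des were detected in all groups. The 5 endothelial markers summed to 0.0368 to 0.233 CPM in C2C12 and 1.93 to 4.10 CPM in primary myoblasts, with Pecam1 at 0.859 to 1.16 CPM there and Tie1 at 0 in all groups. The 5 macrophage markers summed to 1.96 to 2.17 CPM in C2C12 and 2.42 to 4.02 CPM in primary myoblasts, with the pan-leukocyte marker Ptprc at most at 0.0372 CPM. The 2 primary myoblast replicates differed in the fibroblast marker Pdgfra, at 1.03 and 0.896 CPM in replicate 1 (control and Septin9 siRNA) and 31.7 and 32.1 CPM in replicate 2. In C2C12 cells Pdgfra was at 9.42 to 17.1 CPM.

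Levels of different members were compared per kilobase of exon, on one scaling of all 8 samples. The length of a gene was the union of its exons in the GENCODE annotation. In the C2C12 controls Cdc42 was at 156 CPM per kb (SD 4.78, n = 2), Cdc42ep1 at 53.8, Cdc42ep3 at 49.4, Cdc42ep5 at 16.6, Cdc42ep4 at 9.60 and Cdc42ep2 at 4.84. In the primary myoblast controls the means were 167 for Cdc42, 34.6 for Cdc42ep1, 27.8 for Cdc42ep3, 9.54 for Cdc42ep5, 7.16 for Cdc42ep4 and 1.95 CPM per kb for Cdc42ep2. The order of the means was the same in all 4 groups. The samples of Cdc42ep1 and Cdc42ep3 overlapped in all 4 groups, and those of Cdc42ep5 and Cdc42ep4 overlapped in both primary myoblast groups but in neither C2C12 group. Within single samples, Cdc42ep1 was above Cdc42ep3 in 7 of 8, the exception being the Septin9-deficient sample of primary myoblast replicate 1 (40.1 against 41.3 CPM per kb), and Cdc42ep5 was above Cdc42ep4 in 8 of 8. The order of Cdc42ep5 and Cdc42ep4 rests on these lengths, 1.29 and 3.64 kb. In CPM the means were 22.0 and 36.1 in the C2C12 controls and 11.9 and 25.3 in the primary myoblast controls. Among genes with at least 1 CPM, Cdc42 stood at the 98.0th percentile of levels per kb in both controls. Cdc42ep2, the lowest member, stood at percentile 39.2 in the C2C12 controls and 22.9 in the primary myoblast controls.

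**Figure D1:**
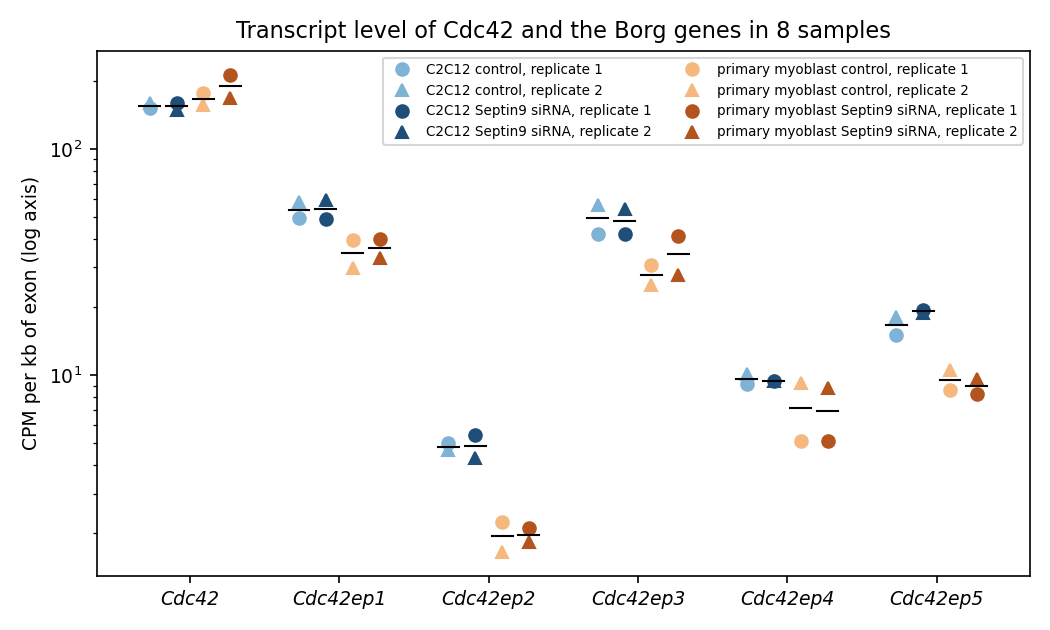
Level of each gene in CPM per kb of exon (log axis) in the 8 samples, with circles for replicate 1, triangles for replicate 2 and a bar at each group mean. Cdc42 lay between 149 and 213 and Cdc42ep2 between 1.66 and 5.43 CPM per kb, and the order of the group means was the same in the 4 groups.

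Cdc42ep1 and Cdc42ep3 together made up most of the Borg transcripts. Their share of the summed Borg level per kb was 75.8% and 77.7% in the C2C12 controls and 72.6% and 77.7% after Septin9 siRNA, and 81.4% and 72.0% in the primary myoblast controls and 84.0% and 75.0% after the siRNA. The summed Borg level was 121 and 148 CPM per kb in the C2C12 controls and 86.1 and 76.1 in the primary myoblast controls, with no overlap. The ratio of Cdc42 to the summed Borg level was 1.26 and 1.08 in the C2C12 controls and 1.28 and 1.01 after the siRNA. In primary myoblasts it was 2.05 and 2.06 in the controls and 2.20 and 2.08 after the siRNA, so every primary myoblast sample had more Cdc42 per Borg transcript than every C2C12 sample.

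In C2C12 cells no member was called changed after Septin9 siRNA at an adjusted p under 0.05 in edgeR, against 6.75% of the 15814 genes tested, and none was a DEG (1.57% of genes), which also required a change of at least 1.5-fold. At an unadjusted p under 0.05 there was 1 member, Cdc42ep5 (18.7% of all genes), and DESeq2 with the same block called 0. The upstream GTPase Cdc42 was at 475 and 479 CPM in the controls and 490 and 451 CPM after the siRNA, and the groups overlapped. Its log2 difference was -0.021 (95% interval -0.17 to 0.13).

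Among the Borg genes of C2C12 cells, only the samples of Cdc42ep5 did not overlap between siRNAs, at 20.4 and 23.7 CPM in the controls and 25.9 and 25.0 CPM after Septin9 siRNA (13.1% of all genes did not overlap and were higher). Cdc42ep5 differed by 0.20 on the log2 scale (1.15-fold, SE 0.092, 95% interval 0.012 to 0.40, edgeR adjusted p = 0.232), and it was higher in both replicate pairs, by 0.34 and 0.077. Without replicate 1 the value was 0.065 and without replicate 2 it was 0.37, neither called.

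The other 4 Borg genes of C2C12 cells were nearly level between siRNAs. Cdc42ep1 was at 133 and 151 CPM in the controls and 130 and 155 CPM after the siRNA, and Cdc42ep3 was at 102 and 133 CPM and then 100 and 129 CPM. For both genes the samples were ordered by replicate, with replicate 2 above replicate 1 under either siRNA. The low-level Cdc42ep2 was at 17.9 and 16.2 CPM in the controls and 19.1 and 15.1 CPM after the siRNA, and Cdc42ep4 was at 34.9 and 37.2 CPM and then 35.5 and 35.1 CPM. The log2 differences of these 4 genes lay between -0.037 and 0.0021 with SEs of 0.066 to 0.10, and their adjusted p-values were 0.838 to 0.994. Cdc42 and these 4 genes differed by less than 0.05 on the log2 scale, as did 25.1% of all genes.

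In primary myoblasts again no member was called in edgeR, against 4.99% of the 17117 genes tested, and none was a DEG (3.17% of genes). At an unadjusted p under 0.05 there was 1 member, Cdc42ep3 (16.7% of all genes), and DESeq2 with the block called 0. Cdc42 was at 508 and 451 CPM in the controls and 604 and 494 CPM after Septin9 siRNA. It was higher in both replicate pairs, by 0.25 and 0.13 on the log2 scale, but the groups overlapped, and the fitted difference was 0.19 (95% interval -0.082 to 0.46, adjusted p = 0.514).

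Cdc42ep3 was the member with the largest difference in primary myoblasts, at 68.7 and 56.0 CPM in the controls and 91.2 and 63.1 CPM after the siRNA. It was higher in both pairs, by 0.41 and 0.17, while the control of replicate 1 lay above the Septin9-deficient sample of replicate 2. The fitted difference was 0.29 (1.22-fold, SE 0.11, 95% interval 0.060 to 0.52, edgeR adjusted p = 0.161). Without replicate 2 it was 0.43 and was called (adjusted p = 0.00337), and without replicate 1 it was 0.15 and was not (adjusted p = 0.416), so the size rested on replicate 1. In these fits the spread came from the other cell type. Gm17315, which overlaps Cdc42ep3 on the other strand, was at 6.68 and 6.39 CPM in the controls and 11.2 and 8.45 CPM after the siRNA (log2 0.58, adjusted p = 0.0672), and its part in the Cdc42ep3 count was not tested.

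The other 4 Borg genes of primary myoblasts showed no called difference, and the groups overlapped for all 6 members (13.4% of all genes did not overlap and were higher, 14.8% lower). Cdc42ep1 was at 98.0 and 74.1 CPM in the controls and 98.2 and 83.4 CPM after the siRNA, and Cdc42ep2 was at 7.43 and 5.48 CPM and then 6.90 and 6.18 CPM. Cdc42ep4 was at 18.1 and 32.5 CPM in the controls and 17.8 and 31.5 CPM after the siRNA, so each Septin9-deficient sample was close to the control of its own replicate and far from the other. Cdc42ep5 was at 10.8 and 13.1 CPM in the controls and 10.2 and 12.3 CPM after the siRNA, and was lower in both pairs by nearly the same amount, -0.089 and -0.090. The log2 differences of these 4 genes lay between -0.090 and 0.087, with adjusted p-values of 0.769 to 0.965.

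The precision behind these values was compared with the size of a DEG. In the main edgeR fit, a 1.5-fold change in either direction, the study's threshold for a DEG, lay outside the 95% interval of all 6 members in both cell types, as for 73.4% of all C2C12 genes and 60.0% of all primary myoblast genes. This holds for that fit only. In primary myoblasts the SE of Cdc42ep2 was 0.19 there and 0.33 in DESeq2 with the block. That of Cdc42ep4 was 0.12 there and 0.42 in edgeR without the block. The widest intervals of the main fit were those of Cdc42ep2, the lowest member, at -0.22 to 0.21 in C2C12 and -0.36 to 0.42 in primary myoblasts. In these bulk samples, fewer cells of a type and less RNA per cell cannot be told apart.

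**Figure D2:**
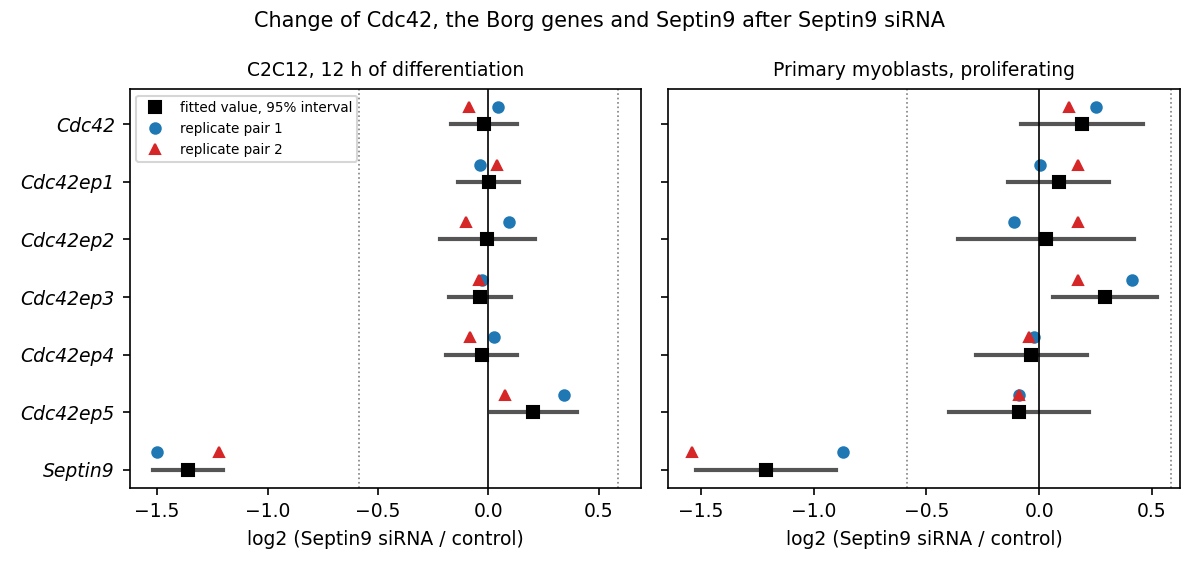
Log2 ratio of Septin9 siRNA to control for Cdc42, the 5 Borg genes and Septin9 in C2C12 (left) and primary myoblasts (right), with squares for the fitted value, bars for its 95% interval and circles and triangles for replicate pairs 1 and 2. Septin9 lay at -1.36 and -1.21 while all 6 family members lay between the dotted lines that mark a 1.5-fold change.

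Whether the change after Septin9 siRNA differed between C2C12 and primary myoblasts was tested as an interaction in one fit of all 8 samples. No member was called, and edgeR called 0 of 17918 genes, with 1469 genes (8.20%) and 1 member, Cdc42ep3, at an unadjusted p under 0.05 and 21 DEGs with DESeq2. Cdc42ep3 was lower in both C2C12 pairs (by -0.030 and -0.044) and higher in both primary myoblast pairs, with a difference of 0.32 (95% interval 0.034 to 0.61, edgeR adjusted p = 0.560). Cdc42ep5 had the opposite pattern, with a difference of -0.31 (95% interval -0.67 to 0.060, adjusted p = 0.683). Without primary myoblast replicate 2 the Cdc42ep3 difference was 0.47 and was called (adjusted p = 0.0293), whereas leaving out any other replicate gave no call.

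For most members the replicates differed more than the siRNAs did. The mean difference between replicates exceeded the mean difference between siRNAs for 5 of 6 members in C2C12 cells (68.6% of all genes) and 6 of 6 in primary myoblasts (64.0% of all genes). In C2C12 cells Cdc42ep3 showed the largest replicate difference, 0.38 in the controls and 0.36 after Septin9 siRNA (log2 of replicate 2 over replicate 1). In primary myoblasts the largest was that of Cdc42ep4, 0.84 in the controls and 0.82 after the siRNA, a size that 13.2% of all genes reached. Cdc42ep5 was higher in replicate 2 of primary myoblasts as well, by 0.27 in both, whereas Cdc42, Cdc42ep1, Cdc42ep2 and Cdc42ep3 were lower there, by means of -0.23, -0.32, -0.29 and -0.41.

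Markers of differentiation, of dividing cells and of other cell types also differed between the replicates. The 10 muscle differentiation genes (Myog, Mymk, Ckm and others) differed between replicates by a median log2 of 1.46 in C2C12 and -1.35 in primary myoblasts. Cdc42ep1 and Cdc42ep3 were higher in both cell types in the replicate in which these genes were higher, whereas Cdc42, Cdc42ep2, Cdc42ep4 and Cdc42ep5 were not. The share of all genes with this pattern was not computed. The same 10 genes differed between siRNAs by medians of 0.76 and 0.86, with 8 of 10 called higher in each cell type. Between siRNAs, Cdc42ep1 and Cdc42ep3 differed by 0.0021 and -0.037 in C2C12 and by 0.087 and 0.29 in primary myoblasts, none of them called. The 6 dividing cell genes (Mki67, Ccnb1 and others) differed between replicates by medians of -1.02 in C2C12 and 0.38 in primary myoblasts, and between siRNAs by -0.42 and -0.44, with 6 of 6 called lower in C2C12 and 3 of 6 in primary myoblasts. In primary myoblasts, Cdc42ep4 was high in the replicate in which the summed fibroblast markers were high, at 46.8 and 50.4 CPM in replicate 2 and 8.03 and 7.48 CPM in replicate 1. The mural cell marker Rgs5 moved the same way, at 55.9 and 33.3 CPM against 9.54 and 10.2 CPM. So did the mural marker Cspg4, at 36.4 and 57.7 CPM against 20.3 and 18.8 CPM. The mural marker Myh11 did not, at 0.260 and 0.191 CPM against 0.258 and 0.358 CPM, and Kcnj8 was at most at 0.0477 CPM. Dpt, Lum and Pi16, the other 3 of the 5 fibroblast markers besides Pdgfra and Ly6a, were under 1 CPM in primary myoblasts. In C2C12 the summed fibroblast markers were at 44.7 and 78.9 CPM in the controls and 58.6 and 84.0 CPM after the siRNA. These C2C12 sums were mostly Ly6a, at 34.1 to 62.7 CPM, with Pdgfra at 9.42 to 17.1 CPM. The part of differentiation, cell division or other cells in these values was not tested.

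**Figure D3:**
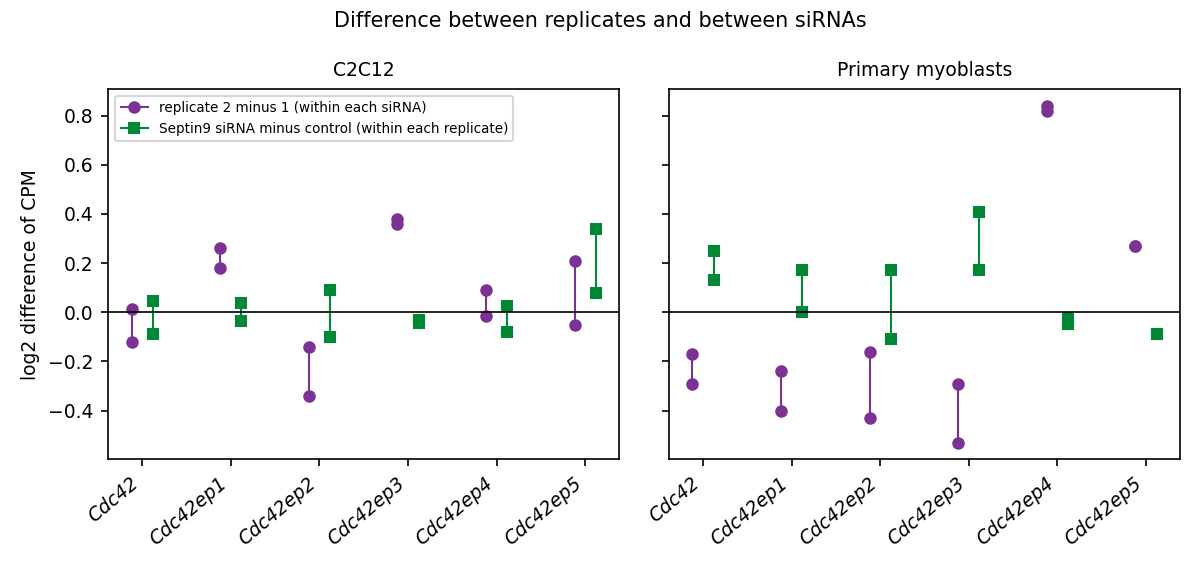
Log2 differences of CPM for each gene, with purple circles for replicate 2 minus replicate 1 (one point per siRNA) and green squares for Septin9 siRNA minus control (one point per replicate), in C2C12 (left) and primary myoblasts (right). Cdc42ep4 in primary myoblasts differed by 0.84 and 0.82 between replicates and by -0.023 and -0.046 between siRNAs.

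The controls of the cell types were then compared, which puts the family in differentiating C2C12 cells beside proliferating primary myoblasts. In this comparison 3 Borg genes were called higher in C2C12 and none lower, 3 of 6 members against 16.2% of all 17103 genes called higher and 18.3% called lower. Cdc42ep2 differed most, at 17.1 and 16.0 CPM in C2C12 and 7.65 and 5.65 CPM in primary myoblasts (log2 1.30, 2.47-fold, SE 0.24, edgeR adjusted p = 0.0184). Cdc42ep3 was at 97.4 and 131 CPM in C2C12 and 70.8 and 57.7 CPM in primary myoblasts (log2 0.82, 1.76-fold, SE 0.21, adjusted p = 0.0388). Cdc42ep5 was at 19.4 and 23.3 CPM in C2C12 and 11.1 and 13.5 CPM in primary myoblasts (log2 0.79, 1.73-fold, SE 0.21, adjusted p = 0.0419). For these 3 genes every C2C12 control lay above every primary myoblast control, and the same held for Cdc42ep1, at 127 and 149 against 101 and 76.3 CPM (log2 0.63, adjusted p = 0.0646), as it did for 37.5% of all genes.

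Cdc42 and Cdc42ep4 overlapped between the controls. Cdc42 was at 452 and 472 CPM in C2C12 and 523 and 465 CPM in primary myoblasts, a log2 difference of -0.11 (95% interval -0.49 to 0.28). Cdc42ep4 was at 33.3 and 36.7 CPM in C2C12 and 18.6 and 33.5 CPM in primary myoblasts, a difference of 0.41 (95% interval -0.38 to 1.20). It was 0.91 and called without primary myoblast replicate 2 (adjusted p = 0.0422) and 0.074 without primary myoblast replicate 1.

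The calls between the controls depended on single libraries. Cdc42ep2 lost its call without C2C12 control replicate 1 (adjusted p = 0.0842) or 2 (adjusted p = 0.0951) and kept it without either primary myoblast control. Cdc42ep3 and Cdc42ep5 lost theirs when any 1 of the 4 libraries was left out, with adjusted p-values of 0.0526 to 0.148 and 0.0553 to 0.175, while Cdc42ep1 was called without primary myoblast replicate 1 (adjusted p = 0.0498). The log2 differences of Cdc42ep1, Cdc42ep2, Cdc42ep3 and Cdc42ep5 stayed positive in each of these fits, at 0.45 to 0.86, 1.12 to 1.56, 0.61 to 1.03 and 0.67 to 0.95. The controls also differed in differentiation markers, with Myog, the transcription factor of early differentiation, at 5.19 and 37.5 CPM in the C2C12 controls and 1020 and 401 CPM in the primary myoblast controls, and 9 of the 10 muscle differentiation genes called lower in C2C12 in spite of its differentiation medium. The part of this in the Borg differences was not tested.

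**Figure D4:**
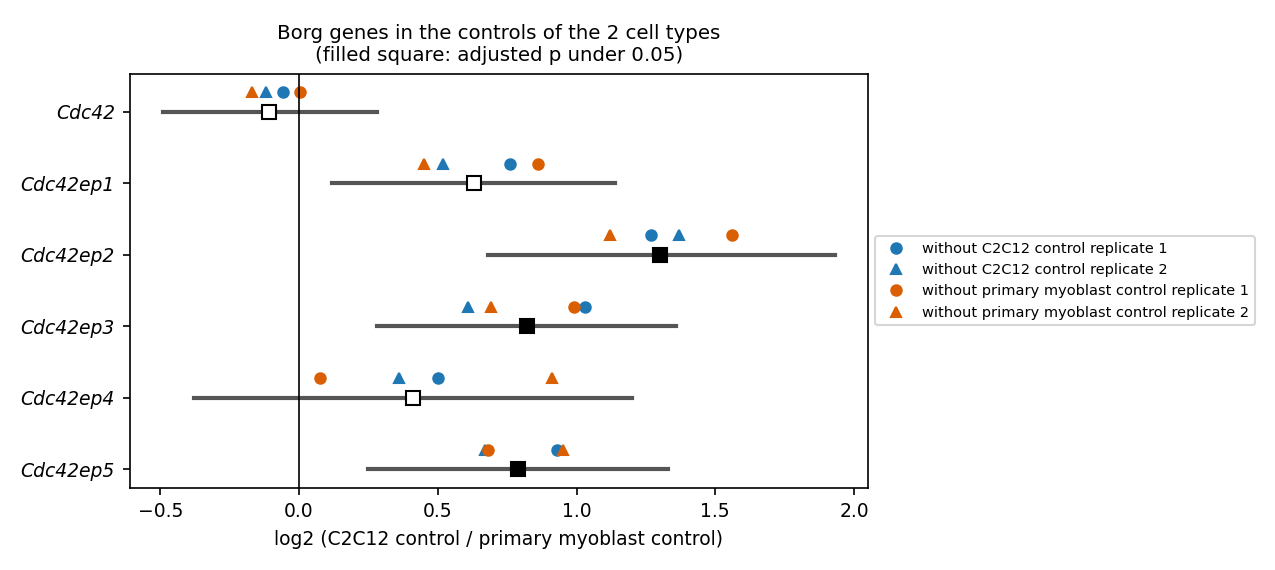
Log2 ratio of C2C12 control to primary myoblast control for Cdc42 and the 5 Borg genes, with squares for the fitted value (filled where the adjusted p was under 0.05), bars for the 95% interval, and small symbols for the value with 1 of the 4 libraries left out. Cdc42ep2 (1.30), Cdc42ep3 (0.82) and Cdc42ep5 (0.79) carry filled squares, and Cdc42ep4 moved between 0.074 and 0.91 with the library left out.

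Cdc42 is switched on by GEFs and off by GAPs, is kept in the cytosol by GDIs, and acts through kinases, actin and membrane regulators and polarity scaffolds besides the Borg proteins. Of the 62 other genes of these groups and related GTPases tested in C2C12 cells, 1 was called higher and 6 lower after Septin9 siRNA, with a median log2 difference of -0.037 against -0.00079 over all genes. In primary myoblasts 2 of 61 were called higher and 1 lower, with a median of -0.047 against 0.010. Over all genes, 2.64% were called higher and 4.12% lower in C2C12, and 3.95% higher and 1.04% lower in primary myoblasts.

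Trip10 and Baiap2l1 were called in both cell types. Trip10 encodes CIP4, an F-BAR protein that binds active Cdc42 and curves membranes, and was at 52.7 and 53.5 CPM in the C2C12 controls and 34.4 and 43.1 CPM after the siRNA (log2 -0.46, adjusted p = 0.00112). In primary myoblasts it was at 45.0 and 54.7 CPM in the controls and 26.9 and 32.3 CPM after the siRNA (log2 -0.75, adjusted p = 0.000656). Trip10 was lower in every Septin9-deficient sample than in every control of its cell type. In primary myoblasts this held for 14.8% of all genes, and the share in C2C12 is not given here. Its call in C2C12 was lost in the blocked fit of all 8 samples (adjusted p = 0.0676) and with edgeR on batch-corrected counts (adjusted p = 0.0637). It was also lost without replicate 1 (-0.32) and without replicate 2 (-0.59), where the spread came from primary myoblasts. In primary myoblasts the call held without replicate 1 (-0.78) and without replicate 2 (-0.72), where the spread came from C2C12. Calls kept or lost in such fits thus cannot be compared between the cell types.

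Baiap2l1, an I-BAR protein that links membranes to actin, moved the other way. It was at 20.3 and 23.5 CPM in the C2C12 controls and 33.0 and 35.7 CPM after the siRNA (log2 0.65, adjusted p = 5.40e-05), and at 90.6 and 37.5 CPM in the primary myoblast controls and 105 and 65.6 CPM after the siRNA (log2 0.50, adjusted p = 0.0275). The C2C12 groups did not overlap (13.1% of all genes did not overlap and were higher). The primary myoblast groups did overlap, since the replicates lay further apart than the siRNAs. The call was lost in C2C12 in the blocked fit of all 8 samples (adjusted p = 0.0581) and without replicate 1 (0.59). In primary myoblasts it was lost without replicate 2 (0.23), whereas without replicate 1 the value was 0.79. With a replicate left out, the spread came from the other cell type. Its call in primary myoblasts was also lost with RLE size factors (adjusted p = 0.100) and with library size alone (adjusted p = 0.131). It was lost as well in DESeq2 with the block (adjusted p = 0.164) and with edgeR on batch-corrected counts (adjusted p = 0.156). DESeq2 on batch-corrected counts called the gene there (adjusted p = 0.0222).

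The other calls in the pathway were each in 1 cell type. In C2C12, 2 of 17 GEFs were called lower, Spata13 (log2 -0.71, adjusted p = 0.000234) and Fgd3 (-0.35, adjusted p = 0.00412), and 1 of 10 GAPs and GDIs, Arhgap1, was lower by -0.39 (adjusted p = 0.00153). Iqgap3, a scaffold (1 of 11), was lower by -0.33 (adjusted p = 0.0106) and the sister GTPase Rac1 (1 of 7) by -0.27 (adjusted p = 0.0177). All 5 genes lost the call when 1 replicate was left out, with the exception of Spata13 without replicate 1 (-0.84). In these fits the spread came from primary myoblasts. With DESeq2 and the block, Spata13 and Arhgap1 were called and the other 3 were not. DESeq2 on batch-corrected counts also called Fgd3 (adjusted p = 0.0102) and Rac1 (adjusted p = 6.36e-05), but not Iqgap3 (adjusted p = 0.0650). In the blocked fit of all 8 samples none of the 5 was called, with adjusted p-values of 0.0725 for Arhgap1, 0.131 for Fgd3, 0.145 for Spata13, 0.229 for Iqgap3 and 0.274 for Rac1. In primary myoblasts these 5 genes were not called, with log2 differences of -0.44 for Spata13, -0.19 for Fgd3, -0.26 for Arhgap1, -0.15 for Iqgap3 and -0.28 for Rac1. None of the 9 kinase effectors tested was called in either cell type by edgeR, with 1 in C2C12 and 0 in primary myoblasts at an unadjusted p under 0.05, and 0 in both with DESeq2.

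Rhoq, the GTPase TC10, a close relative of Cdc42 that also binds Borg proteins, was the 1 called member of 6 related GTPases in primary myoblasts. It was at 311 and 161 CPM in the controls and 386 and 277 CPM after the siRNA (log2 0.55, adjusted p = 0.0208), so that the groups overlapped and both pairs were higher. Its value was 0.76 without replicate 1 and 0.33 without replicate 2, called in both, with the spread taken from C2C12 cells. The call was lost with RLE size factors (adjusted p = 0.0830), with library size alone (adjusted p = 0.0972) and with edgeR on batch-corrected counts (adjusted p = 0.0955). In primary myoblasts edgeR on batch-corrected counts did not call the target Septin9 either (-1.16, adjusted p = 0.0580). In C2C12 it was at 106 and 134 CPM in the controls and 98.9 and 127 CPM after the siRNA (-0.088, adjusted p = 0.536).

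**Figure D5:**
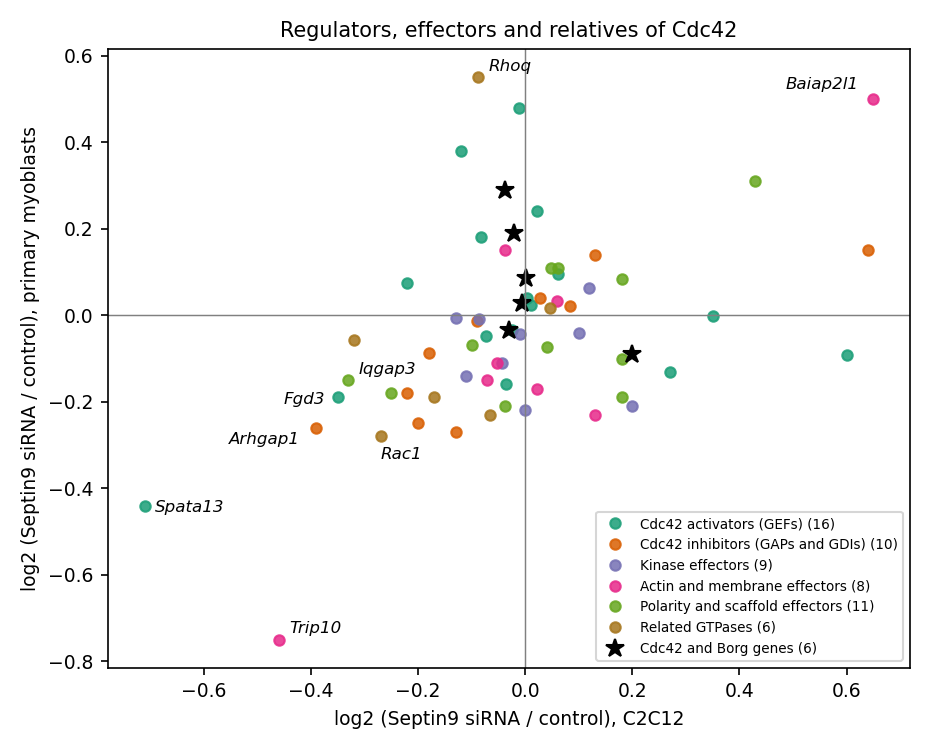
Log2 ratio of Septin9 siRNA to control in C2C12 (horizontal) and primary myoblasts (vertical) for the other Cdc42 pathway genes tested in both, coloured by role, with stars for Cdc42 and the Borg genes and names beside genes called in either cell type. Trip10 lies at -0.46 and -0.75 and Baiap2l1 at 0.65 and 0.50, while the 6 stars lie between -0.037 and 0.20 horizontally and between -0.090 and 0.29 vertically.

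Septins are the filament proteins that Borg proteins bind, and Septin9 was 1 of 3 called of 9 tested in C2C12 (6.75% of all genes were called) and 1 of 2 called of 11 tested in primary myoblasts (4.99% of all genes). Both counts of called septins include Septin1, whose counts are uncertain. Septin6 was higher in C2C12 cells by 0.32 (adjusted p = 0.0113, at 35.2 and 38.2 CPM in the controls and 45.7 CPM in both Septin9-deficient samples). Its call was lost without replicate 1 (0.25) and without replicate 2 (0.40), where the spread came from primary myoblasts. In primary myoblasts Septin6 differed by 0.053 (adjusted p = 0.896). Septin1 was called higher in both cell types (log2 0.62 and 1.08), but its counts followed those of the muscle myosin light chain gene Mylpf. Its raw counts in the primary myoblast controls were 46091 and 14099, against 46040 and 14046 for Mylpf. In the C2C12 controls they were 104 and 313, against 72 and 288 for Mylpf. The Septin1 calls thus cannot be told apart from a change of Mylpf and are not read as a change of Septin1. In DESeq2 with the block, Septin9 was called in both cell types and Septin1 and Septin6 were not. DESeq2 on batch-corrected counts also called Septin1 in primary myoblasts (adjusted p = 2.24e-13). In the blocked fit of all 8 samples, Septin1 (adjusted p = 0.243) and Septin6 (adjusted p = 0.164) were not called in C2C12.

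The genes most like each member were found by Pearson correlation of log2 CPM, centred within each cell type, over the 8 samples and 9539 or 9540 other genes. The points share libraries and replicates, and the correlations are descriptions. Cdc42ep4 was most like Egr3, an immediate early transcription factor, and Cx3cl1, a membrane-bound chemokine (both r = 0.998), where 1% of genes reached 0.968. Cdc42ep3 was most like Tm2d2 and Cnn3, an actin-binding calponin (both r = 0.990), and Cdc42ep1 was most like Tbc1d24 (r = 0.995), with the junction protein gene Amotl1 also among its top 3 (r = 0.989). Cdc42ep5 was most like Slc25a30, a mitochondrial carrier (r = 0.986), Cdc42ep2 was most like Ddb1 (r = 0.984) and Cdc42 was most like Supt3 (r = 0.990). Within the family Cdc42ep1 and Cdc42ep3 varied together (r = 0.88), as did Cdc42ep4 and Cdc42ep5 (r = 0.72), whereas Cdc42ep4 varied against Cdc42, Cdc42ep1, Cdc42ep2 and Cdc42ep3 (r = -0.74, -0.77, -0.72 and -0.63). The positive values were below what 1% of genes reached, 0.938 for Cdc42ep1, 0.930 for Cdc42ep3, 0.968 for Cdc42ep4 and 0.837 for Cdc42ep5. They are thus not particular to the family.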

How the data were processed

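Libraries were polyA-selected. Per the submitters' processing notes and the paper's methods, the authors mapped reads to GRCm38.p6 (mm10) with STAR 2.7.2, counted them per gene with featureCounts 2.0.1 and deposited raw counts without normalization for all 8 samples. The annotation is named as Gencode, yet the gene names are RefSeq symbols. The authors also deposited, per cell type, a normalized signal, namely counts corrected for batch with ComBat-Seq and divided by the size factors of DESeq2 1.40.1. Every value of that signal was a whole multiple of 1 read (100% of values, tolerance 0.01), so batch-corrected counts were recovered, and edgeR on these was added after the data were examined. The raw counts hold 16 broken lines of 5 genes, at most 0.112% of reads, which were left out, leaving 42391 entries, 2379 of them named as a further copy of another gene.

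Raw counts were tested in R 4.3.3 with edgeR 4.0.16 (filterByExpr, TMM, quasi-likelihood test, Benjamini-Hochberg over all genes tested), each cell type alone, with the replicate number as a block, since, per the study's methods, the cells came from 2 experiments and counts were corrected for batch. That the replicate number marks the experiment or the batch is not stated in the sources used here. Pairs were taken from the replicate numbers of the sample titles, and the deviations of same-numbered samples from their group means correlated across genes at 0.678 in C2C12 and 0.820 in primary myoblasts. The controls of the cell types were compared without a block. Genes were called at an adjusted p under 0.05, and DEGs also differed by at least 1.5-fold. CPM are TMM-scaled within each cell type, and over all 8 samples for levels per kb, marker sums and the controls, and pair differences are log2 CPM with a prior count of 2. Named genes were the members, Septin9, up to 4 genes called per list and cell type, and the 3 genes most like each member among genes of at least 10 CPM. The members and lists were chosen with earlier results of these data known. Markers and other genes (Pecam1, Mki67, Ccnb1, Pdgfra, Ly6a, Rgs5, Cspg4, Myh11, Kcnj8, Dpt, Lum, Pi16, Myog, Myod1, Pax7, Des, Ptprc, Tie1, Gm17315, Lgals2) were named after their values were seen.

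Alternatives were scaling by RLE or by library size only, either no filter on low counts or a minimum of 10 in each sample, DESeq2 1.42.0, no block, all samples in one fit, and each replicate left out in turn. With a replicate left out, the lone samples were assumed to vary like those of the other groups. For the siRNA comparisons the spread then came from the other cell type. The fits were tested on simulated data. Depth was 20898611 to 27223414 counts per sample. With 2 replicates per group, counting error was not separated from variation between samples. The siRNA seed and protein sequences were not analysed here.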

Additional observations from a re-analysis of the deposited data

Results flagged for a closer look

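Among the members and the other genes examined by replicate pair, 3 genes moved one way in every C2C12 pair and the other way in every primary myoblast pair. The share of all genes with this pattern was not computed. In none of the 3 genes did the difference pass the interaction test of edgeR after adjustment. Cdc42ep3 differed by 0.32 on the log2 scale (change in primary myoblasts minus change in C2C12, adjusted p = 0.560). Cdc42ep5 differed by -0.31 (adjusted p = 0.683). Rhoq differed by 0.62 (adjusted p = 0.306).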

How the results depend on the processing

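The count of members called after Septin9 siRNA was 0 in C2C12 cells under all 11 alternatives and 0 in primary myoblasts under all but 1 of 11. Leaving out 1 replicate gave 0 to 1 called members in primary myoblasts and in the comparison of changes between the cell types (Cdc42ep3 in both), and 0 to 2 in the comparison of controls. Without the replicate block edgeR called no member in either cell type (adjusted p of 1.00 for each) and no other gene, with 372 and 378 genes at an unadjusted p under 0.05, and the value of Cdc42ep2 in C2C12 was 0.0027. In the controls, a replicate block left 1 member called, Cdc42ep2, and library size alone, no filter, DESeq2 and the 4 group means in one fit called 4, adding Cdc42ep1. DEGs numbered 248 in C2C12 cells, 99 with DESeq2, 123 with DESeq2 on batch-corrected counts and 83 with all 8 samples in one fit, and 98 to 181 without 1 replicate. In primary myoblasts they numbered 542 (90.6% higher), 260 with RLE size factors, 206 with library size alone (80.1% higher), 230 with DESeq2, 331 with DESeq2 on batch-corrected counts, and 358 to 926 without 1 replicate. Between the controls there were 5699 DEGs and 512 to 4760 without 1 replicate. The comparison of changes gave 0 DEGs, 199 with no filter, 21 with DESeq2 and 51 to 470 without 1 replicate. Members that changed sign were all uncalled: in C2C12, Cdc42 (0.00091 with library size alone, -0.10 to 0.069 without 1 replicate), Cdc42ep1 (-3.5e-05 with RLE, -0.016 with no filter, -0.00026 with DESeq2, -0.011 to 0.026 without 1 replicate), Cdc42ep2 (0.017 with library size alone, 0.00076 with all 8 samples, -0.11 to 0.12 without 1 replicate) and Cdc42ep4 (-0.095 to 0.049 without 1 replicate). In primary myoblasts Cdc42ep2 reversed (-0.0033 with library size alone, -0.0021 with DESeq2 on batch-corrected counts, -0.089 to 0.15 without 1 replicate), and between the controls Cdc42 did (-0.17 to 0.0046 without 1 replicate). In the comparison of changes Cdc42ep2 (-0.022 with library size alone, -0.090 to 0.16 without 1 replicate) and Cdc42ep4 (-0.089 to 0.054) reversed. The cause of these shifts was not tested.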
